A study of Mus musculus with 16 samples.

Results

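Expression of 10 antioxidant defence genes was described in naive mouse T cells with and without Tsc1: Hmox1, Gclm, Gclc, Nqo1, Txnrd1, Srxn1, Cat, Sod1, Sod2 and Prdx1. The members were taken by symbol, as all probe sets that the platform's annotation assigns to 1 of these genes. This gave 19 probe sets of 45037 tested, for 10 of 17097 genes. A gene with several probe sets was represented by the one with the highest mean over all arrays, called its brightest probe set here, and its other probe sets are given beside it.

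The study hybridised RNA of sorted naive T cells from C57BL/6-background mice to 16 Affymetrix expression arrays. The 4 CD4 groups had 3 arrays each: wild-type and Tsc1-deficient cells, unstimulated (0 h) or stimulated for 4 h by plate-bound anti-CD3 and anti-CD28, antibodies that engage the T cell receptor complex and its costimulatory receptor. The 2 CD8 groups, wild-type and Tsc1-deficient, had 2 arrays each and were unstimulated. Tsc1 encodes a subunit of the complex that restrains the growth-regulating kinase mTORC1. The sources used here do not say how or in which cells the Tsc1 gene was deleted, or whether arrays of a group came from separate mice. A p-value therefore covers only array-to-array spread, which may be technical. One sentence of the labels' treatment text names HIF1a-deficient mice, whereas every genotype entry of the deficient arrays names Tsc1, which was followed.

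Cells that burn fuel produce superoxide and hydrogen peroxide. Superoxide dismutases (Sod1 in the cytosol, Sod2 in mitochondria) turn superoxide into hydrogen peroxide, which catalase (Cat), peroxiredoxins such as Prdx1 and glutathione peroxidases remove. Glutathione is made in a first step by glutamate-cysteine ligase, whose catalytic subunit is Gclc and whose modifier subunit is Gclm. Thioredoxin reductase (Txnrd1) keeps thioredoxin reduced, and sulfiredoxin (Srxn1) repairs overoxidised peroxiredoxins. Haem oxygenase (Hmox1) breaks down haem, and Nqo1 reduces quinones. Many of these genes are textbook targets of Nrf2, the product of Nfe2l2, which binds antioxidant response elements together with small Maf proteins, while Bach1 and Bach2 bind such elements as repressors. T cell stimulation raises metabolic activity and with it the demand for reducing power.

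The core of the antioxidant response element, TGACNNNGC, was searched on both strands in the 250 bases before each start site in RefSeq promoter windows (build GRCm38.p6). Of the members, 8 matched by symbol, all but Gclc and Hmox1, with 10 windows in all. The core was found for 4 genes, Gclm, Txnrd1, Sod1 and Prdx1, and in 10.2% of the 32851 windows of all genes. That share, like the share for the further motif below, is of windows and not of genes, and a gene can have several windows. The share of genes was not counted. For Txnrd1 the core lay in 1 of 3 windows. These stretches are shown because Gclm, Txnrd1 and Sod1 were 3 of the 5 members with a genotype difference after stimulation, of which 4 had a window, while Prdx1 held the same core and had none. Capitals mark the core, which in each stretch is read on the opposite strand, and the stretches are written 5′ to 3′ on the plus strand, the strand of all 4 genes. The core started 134 bases before the start of Gclm, 92 before Txnrd1, 56 before Sod1 and 133 before Prdx1.
Gclm, chr3:122245398-122245456: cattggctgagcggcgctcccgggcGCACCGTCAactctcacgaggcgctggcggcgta
Txnrd1, chr10:82859089-82859147: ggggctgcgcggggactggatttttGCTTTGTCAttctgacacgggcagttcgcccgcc
Sod1, chr16:90220681-90220739: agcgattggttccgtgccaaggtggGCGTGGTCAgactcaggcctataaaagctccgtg
Prdx1, chr4:116685441-116685499: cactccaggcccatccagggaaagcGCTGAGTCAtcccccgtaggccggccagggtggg
A further motif, TGAGTCA, bound by AP-1 factors and read as TGACTCA on the other strand, was found on either strand for 2 members, Srxn1 and Prdx1, and in 4.46% of windows. In Prdx1 1 of its 2 matches overlaps the core shown above, so the same letters count for both motifs. The windows of Cat, Nqo1 and Sod2 held neither motif. Such a match is a description of letters and does not show that a factor binds there.

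Values are log2 signals, so a difference of 1 is a doubling, and levels are compared only between arrays for the same probe set. The median of the whole table was 3.36, and replicate arrays correlated at 0.987 to 0.996. The T cell markers of 5 measured genes were above that median in all 6 groups. The brightest Tsc1 probe set was lower without Tsc1, at 6.48 against 7.31 in unstimulated CD4 cells, 6.39 against 7.46 after 4 h and 6.38 against 6.93 in CD8 cells. Of 3 Tsc1 probe sets, the other 2 did not pass the test, and the sources used here do not place any of them in or outside a deleted part. The difference between 3′ and 5′ Gapdh probe sets, a sign of RNA quality, was 0.96 on the stimulated deficient CD4 replicate 1 and 0.64 on the deficient CD8 replicate 2. The other 14 arrays ran from 0.0241 to 0.404. In such bulk samples, fewer cells of a type and less RNA per cell cannot be told apart.

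Among the genotype comparisons, members passed the test in stimulated CD4 cells. After 4 h, 5 of 10 members were higher in Tsc1-deficient than in wild-type cells (Txnrd1, Gclc, Sod1, Cat and Gclm) and 0 were lower, where 4.56% of all 17097 genes were higher and 3.01% lower (limma, adjusted p under 0.05). The median difference of the 10 members was 0.34, against -0.00071 over all genes. On the brightest probe sets all 10 differences were positive, with Srxn1 at only 0.000263. A dim Sod2 probe set had a difference of -0.02. With only the 2 compared groups in the fit 1 of the 10 passed, Txnrd1. Without the stimulated wild-type replicate 1 or 3 the count was 3. Without the stimulated deficient replicate 1, the array of highest Gapdh difference, it was 4. Gclm and Cat then lost their calls and Sod2 gained a call. The share of all genes passing was not counted in these fits. In unstimulated CD4 cells 0 of 10 members passed the test in limma, where 4.35% of genes did. An unadjusted p under 0.05 in limma was found for 3 members and for 2877 of the 17097 genes. In unstimulated CD8 cells 0 of 10 passed in limma, where 4.18% of genes did. There 1 member and 3194 of the 17097 genes had an unadjusted p under 0.05 in limma.

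**Figure D1:**
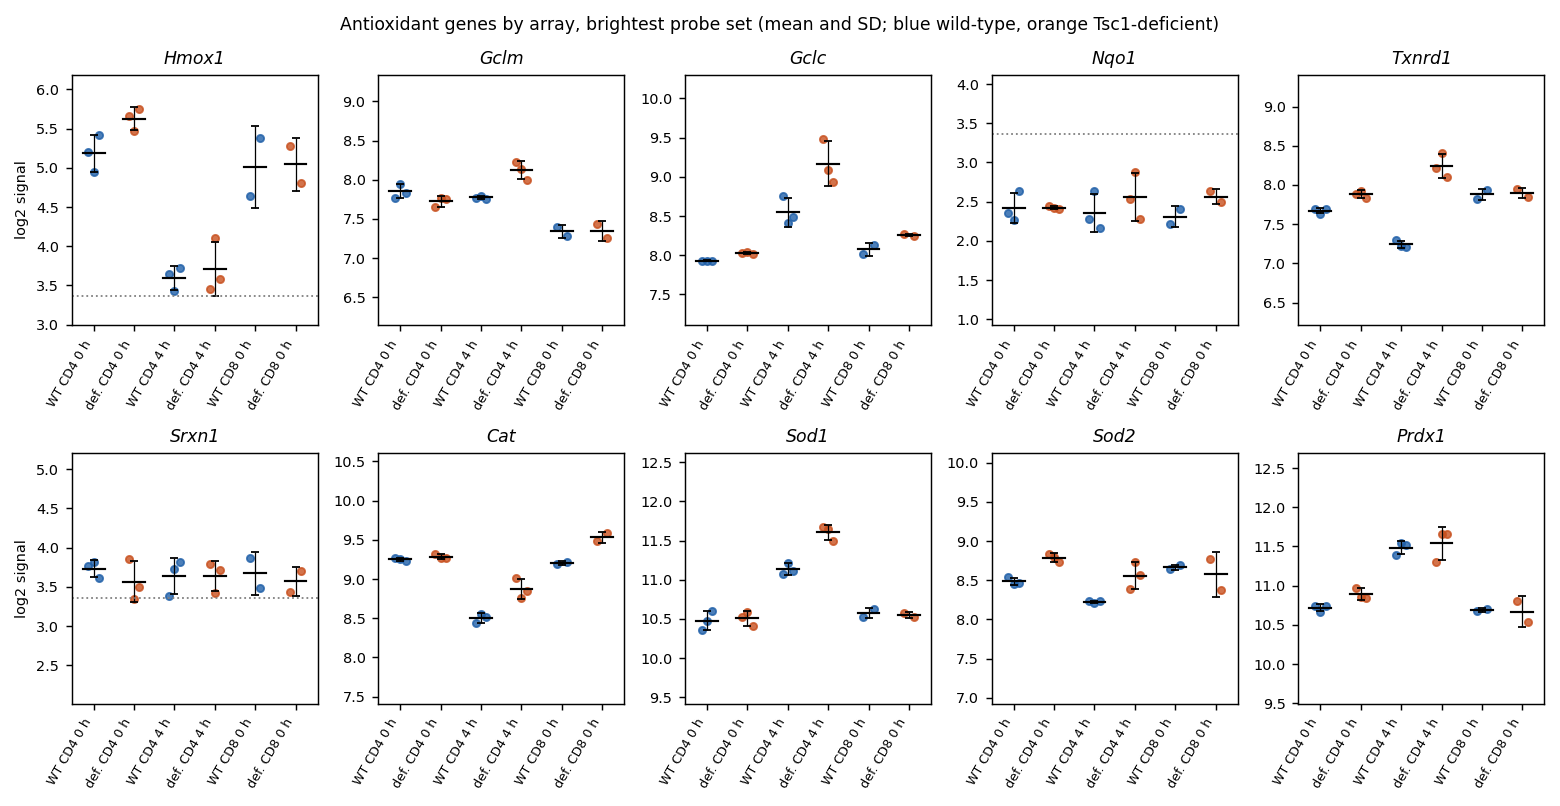
Log2 signal of each member's brightest probe set on all 16 arrays, by group (WT wild-type, def. Tsc1-deficient). Points are arrays, horizontal lines group means and bars the SD, all panels span the same range of log2 units, and the dotted line is the table median of 3.36. In stimulated CD4 cells all deficient values of Txnrd1, Gclc, Gclm, Sod1, Cat and also Sod2, which did not pass, lie above all wild-type values. In unstimulated CD4 cells, where 0 of 10 members passed, the genotypes do not overlap for Hmox1, Gclm, Gclc, Txnrd1, Cat, Sod2 and Prdx1. Of these, Gclm is lower in deficient cells. The share of all genes without overlap was not counted.

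Txnrd1, the cytosolic thioredoxin reductase, showed the largest genotype difference among the members. In wild-type CD4 cells the 3 unstimulated arrays read 7.69, 7.63 and 7.70, and the 3 stimulated arrays 7.30, 7.22 and 7.21. In Tsc1-deficient CD4 cells the unstimulated values were 7.88, 7.93 and 7.83, and the stimulated values 8.21, 8.41 and 8.10. Stimulation therefore left the wild-type arrays at the bottom and the deficient arrays at the top, with no overlap between any of these 4 groups. After 4 h the deficient mean was higher by 1.00 ± 0.09 (SE), which is a doubling (limma, adjusted p = 2.06e-05). Within wild-type cells Txnrd1 fell by 0.43 ± 0.09 (SE) with stimulation (adjusted p = 0.00185, limma), and within deficient cells it rose by 0.36 ± 0.09 (SE; adjusted p = 0.00578, limma).

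The difference between these responses was tested as an interaction. For Txnrd1 it was 0.79 ± 0.13 (SE; 95% interval 0.52 to 1.07; limma, adjusted p = 0.0152), and Txnrd1 was the 1 member of 10 that passed, where 0.69% of all genes did. Without the unstimulated wild-type CD4 replicate 3 the interaction was 0.78, with an adjusted p of 0.0512 in limma. The genotype difference of Txnrd1 after 4 h kept its call in each of 17 alternative fits, with adjusted p values up to 0.00454 in limma, but it falls just short of an added 2-fold minimum. In unstimulated CD4 cells the difference was 0.21 ± 0.09 (SE; limma, adjusted p = 0.316). The arrays did not overlap there, as for Hmox1, Gclm, Gclc, Cat, Sod2 and Prdx1, which also did not pass. The CD8 arrays read 7.83 and 7.93 in wild-type against 7.95 and 7.85 in deficient cells, which overlap.

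**Figure D2:**
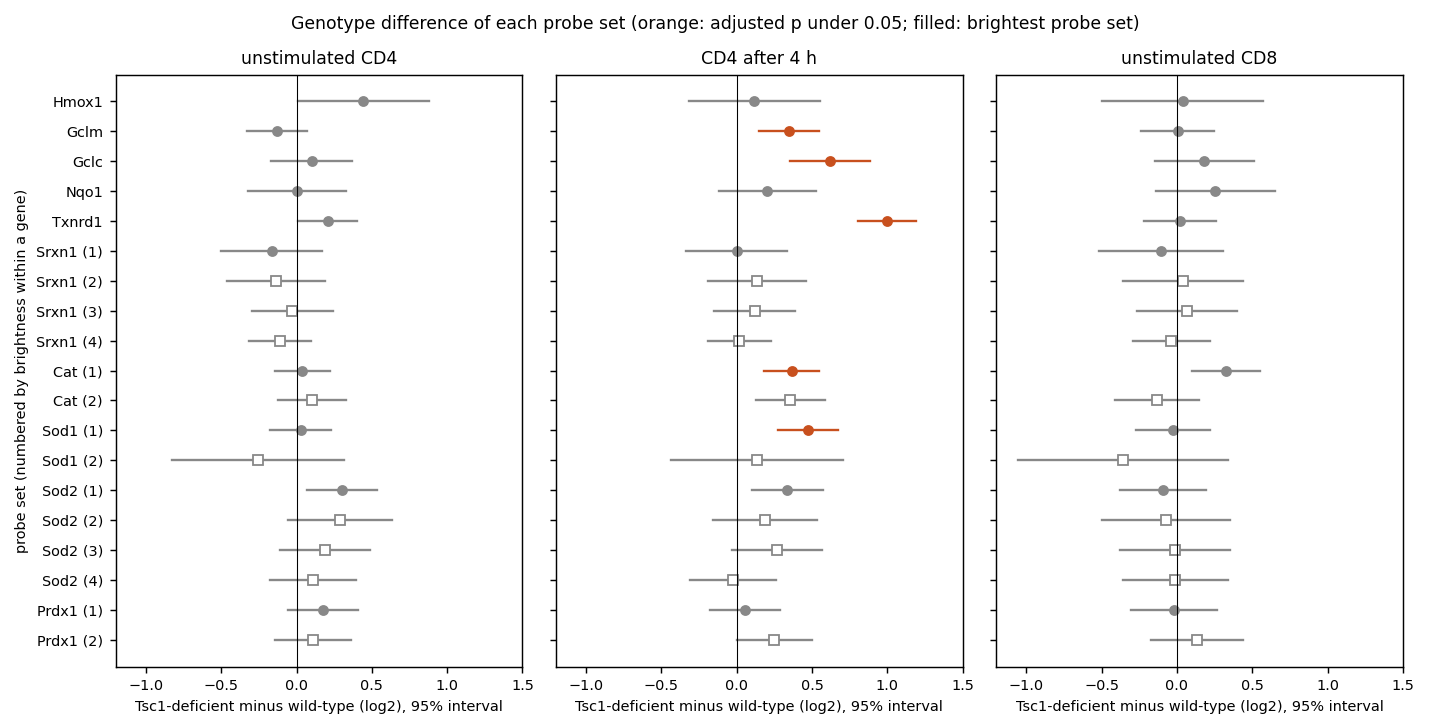
Tsc1-deficient minus wild-type difference (log2) of all 19 member probe sets in unstimulated CD4 cells, CD4 cells after 4 h and unstimulated CD8 cells. Circles are brightest and open squares other probe sets, bars are 95% intervals, and orange marks an adjusted p under 0.05. Only the middle panel has orange points, for Txnrd1 (1.00), Gclc (0.62), Sod1 (0.47), Cat (0.37) and Gclm (0.35).

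Both subunits of glutamate-cysteine ligase were higher in stimulated deficient cells. The catalytic subunit Gclc was nearly flat in unstimulated CD4 cells, at 7.93, 7.93 and 7.92 in wild-type against 8.03, 8.05 and 8.02 in deficient arrays. After 4 h it read 8.76, 8.40 and 8.48 in wild-type against 9.49, 9.09 and 8.93 in deficient cells. All stimulated values exceeded all unstimulated ones, and the lowest deficient value after 4 h exceeded the highest wild-type value. Gclc rose by 0.62 ± 0.13 (SE), or 1.54-fold, in wild-type cells (adjusted p = 0.00129, limma) and by 1.14 ± 0.13 (SE), or 2.20-fold, in deficient cells (adjusted p = 3.39e-06, limma). The genotype difference after 4 h was 0.62 ± 0.13 (SE; adjusted p = 0.00775, limma), and the difference between the responses, 0.52 ± 0.18 (SE), did not pass (adjusted p = 0.318, limma). With only the compared groups in the fit, the Gclc genotype difference did not pass (0.62; adjusted p = 0.0893, limma).

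Gclm, the modifier subunit, was at 7.77, 7.95 and 7.84 in unstimulated and 7.76, 7.80 and 7.76 in stimulated wild-type CD4 cells. The deficient CD4 values were 7.65, 7.77 and 7.76 at 0 h and 8.23, 8.14 and 8.0 after 4 h. The stimulated deficient arrays were thus the highest of the CD4 arrays. Gclm rose with stimulation in deficient cells, by 0.40 ± 0.09 (SE; adjusted p = 0.00325, limma), while the wild-type difference was -0.08 ± 0.09 (SE; adjusted p = 0.636, limma). The interaction was 0.48 ± 0.13 (SE) and did not pass over all probe sets (adjusted p = 0.172, limma). After 4 h the genotype difference was 0.35 ± 0.09 (SE; adjusted p = 0.0385, limma). That call ended without any 1 of the 3 wild-type arrays or without the deficient replicate 1 or 2, with differences of 0.29 to 0.36.

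Sod1 and Cat, which act in sequence on superoxide and hydrogen peroxide, moved in opposite directions with stimulation, and both were higher in deficient cells after 4 h. Sod1 read 10.36, 10.48 and 10.60 in unstimulated and 11.07, 11.21 and 11.12 in stimulated wild-type CD4 cells. In deficient CD4 cells it read 10.52, 10.59 and 10.41 at 0 h and 11.68, 11.64 and 11.50 after 4 h. The unstimulated groups overlapped, and the stimulated groups stood above them in 2 separate steps. Sod1 rose 1.57-fold in wild-type cells (0.65 ± 0.09, SE; adjusted p = 5.88e-05, limma) and 2.14-fold in deficient cells (1.10 ± 0.09, SE; adjusted p = 2.16e-07, limma). The genotype difference after 4 h was 0.47 ± 0.09 (SE; adjusted p = 0.00683, limma), and the interaction was 0.44 ± 0.13 (SE; adjusted p = 0.226, limma). With only the compared groups in the fit, the Sod1 genotype difference did not pass (0.47; adjusted p = 0.0537, limma).

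A second, dimmer Sod1 probe set did not follow the first. Over the 16 arrays it ranged from 6.53 to 7.89, its genotype difference after 4 h was 0.13 ± 0.27 (SE; adjusted p = 0.879, limma), and its stimulation differences were -0.40 in wild-type and -0.01 in deficient cells. With both probe sets averaged, the Sod1 genotype difference after 4 h was 0.30 (adjusted p = 0.277, limma) and the wild-type rise was 0.13 (adjusted p = 0.61, limma), so these 2 calls belong to the brightest probe set.

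Cat read 9.26, 9.26 and 9.23 in unstimulated and 8.44, 8.56 and 8.52 in stimulated wild-type CD4 cells. The deficient CD4 values were 9.32, 9.27 and 9.27 at 0 h and 9.01, 8.76 and 8.84 after 4 h. All stimulated values lay below all unstimulated values, and within the stimulated arrays the deficient ones lay higher. Cat fell by 0.75 ± 0.09 (SE) in wild-type cells (adjusted p = 6.6e-06, limma) and by 0.42 ± 0.09 (SE) in deficient cells (adjusted p = 0.00121, limma). The genotype difference after 4 h was 0.37 ± 0.09 (SE; adjusted p = 0.0193, limma), with an interaction of 0.33 ± 0.12 (SE; adjusted p = 0.372, limma). The second Cat probe set also fell, by 0.76 in wild-type and 0.51 in deficient cells, and its genotype difference of 0.36 ± 0.11 (SE) after 4 h missed the threshold (adjusted p = 0.0695, limma). It passed without the 2 arrays of high Gapdh difference (0.41; adjusted p = 0.0329, limma) and with that difference as a covariate (0.43; adjusted p = 0.033, limma). The genotype call of the brightest Cat probe set ended without the wild-type replicate 1 or 3 or without the deficient replicate 1, the array with the high Gapdh difference; without that array the difference was 0.30 (adjusted p = 0.0639, limma).

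Sod2, the mitochondrial dismutase, did not pass the test in any comparison. Its CD4 arrays were apart by genotype, which at 0 h also held for Hmox1, Gclm, Gclc, Txnrd1, Cat and Prdx1. The share of all genes with groups apart was not counted. Sod2 read 8.54, 8.46 and 8.46 in wild-type against 8.84, 8.79 and 8.73 in deficient cells at 0 h, a difference of 0.30 ± 0.11 (SE; adjusted p = 0.19, limma). After 4 h the values were 8.23, 8.21 and 8.23 in wild-type against 8.38, 8.73 and 8.56 in deficient cells, a difference of 0.34 ± 0.11 (SE; adjusted p = 0.0967, limma). The lowest of these deficient values came from replicate 1, and without it the difference was 0.42 (adjusted p = 0.0434, limma). Without both arrays of high Gapdh difference the adjusted p in limma was 0.0103 after 4 h and 0.0358 at 0 h. In CD8 cells the values overlapped, at 8.64 and 8.69 in wild-type against 8.77 and 8.37 in deficient cells. Of the 3 other Sod2 probe sets, 0 passed at 0 h or 4 h.

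Prdx1, a cytosolic peroxiredoxin, rose with stimulation in both genotypes. Wild-type CD4 cells read 10.74, 10.66 and 10.75 at 0 h and 11.39, 11.54 and 11.52 after 4 h. Deficient CD4 cells read 10.98, 10.86 and 10.84 at 0 h and 11.30, 11.66 and 11.66 after 4 h. The stimulated genotypes overlapped. The rise was 0.77 ± 0.11 (SE; adjusted p = 5.29e-05, limma) in wild-type and 0.65 ± 0.11 (SE; adjusted p = 0.000224, limma) in deficient cells, and a second probe set rose by 0.52 and 0.66. The genotype difference after 4 h was 0.05 ± 0.11 (SE; 95% interval -0.18 to 0.29; adjusted p = 0.885, limma), and 0.25 ± 0.12 (SE; adjusted p = 0.292, limma) on the second probe set. Its sulfiredoxin partner Srxn1 gave signals of 3.35 to 3.87 on the brightest of 4 probe sets and 1.69 to 3.21 on the other 3, so all lay near or below the table median, and 0 of the 4 passed in any comparison.

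Stimulation moved members in both directions. The stimulation and genotype comparisons share arrays, so their values are not independent. In wild-type CD4 cells Gclc, Sod1 and Prdx1 rose and Hmox1, Cat and Txnrd1 fell, so 3 of 10 members rose, where 12% of all genes did, and 3 fell, where 18.5% did. In deficient cells Gclc, Gclm, Sod1, Prdx1 and Txnrd1 rose and Hmox1 and Cat fell, so 5 of 10 rose, where 13.2% of all genes did, and 2 fell, where 20.9% did. Txnrd1 was the member that passed in both genotypes with opposite signs. With a 2-fold minimum added to the adjusted p, 1 member passed in wild-type cells (Hmox1) and 3 in deficient cells (Hmox1, Gclc and Sod1). The share of all genes passing with that minimum was not counted.

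**Figure D3:**
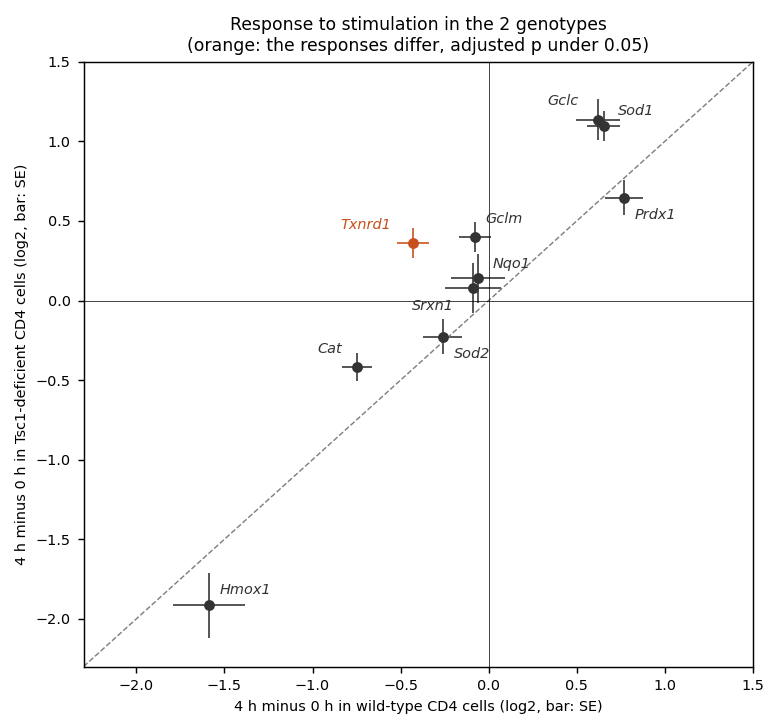
Change with 4 h of stimulation (log2, 4 h minus 0 h) of each member's brightest probe set in wild-type CD4 cells (x axis) and Tsc1-deficient CD4 cells (y axis). Points are genes, bars are SE, the dashed line marks equal responses, and orange marks an interaction with an adjusted p under 0.05. Txnrd1 is the orange point, at -0.43 and 0.36, and Hmox1 lies farthest down, at -1.59 and -1.91.

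Hmox1 had the largest response to stimulation, and it was downward. Unstimulated CD4 arrays read 5.20, 4.94 and 5.41 in wild-type against 5.66, 5.47 and 5.75 in deficient cells. Stimulated arrays read 3.64, 3.43 and 3.72 in wild-type against 3.46, 4.10 and 3.58 in deficient cells. All stimulated values lay below all unstimulated ones and close to the table median of 3.36. Hmox1 fell by 1.59 ± 0.20 (SE), which is 3.01-fold, in wild-type cells (adjusted p = 1.93e-05, limma) and by 1.91 ± 0.20 (SE), which is 3.77-fold, in deficient cells (adjusted p = 2.26e-06, limma). The genotype difference was 0.44 ± 0.20 (SE; adjusted p = 0.347, limma) at 0 h and 0.12 ± 0.20 (SE; adjusted p = 0.858, limma) after 4 h.

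Hmox1 is a gene of tissue macrophages, and markers of these cells moved with it. Of 16 measured macrophage and dendritic cell markers, 11 fell with stimulation in wild-type and 10 in deficient CD4 cells, and 0 rose. Of all genes 18.5% fell in wild-type and 20.9% in deficient cells. The complement genes C1qa, C1qb and C1qc, made by macrophages, fell by 2.60, 2.11 and 2.0 in wild-type cells and by 2.46, 2.38 and 1.94 in deficient cells. The summed signal of the 16 markers (log2) ran from 8.50 to 8.81 in unstimulated wild-type, 8.75 to 9.22 in unstimulated deficient, 7.35 to 7.51 in stimulated wild-type and 7.73 to 8.02 in stimulated deficient CD4 cells. On CD8 arrays it ran from 8.28 to 8.73 in wild-type and 8.42 to 8.87 in deficient cells. Among unstimulated arrays the lowest Hmox1 value, 4.63, came from the array with the lowest marker sum, 8.28, and the highest, 5.75, from the array with the highest sum, 9.22. Among stimulated arrays the lowest Hmox1 value, 3.43, also came with the lowest sum, 7.35. The highest, 4.10, came with a sum of 7.73, and the array with the highest sum, 8.02, had an Hmox1 value of 3.58. The mean of C1qa was 5.21 in unstimulated and 2.61 in stimulated wild-type cells, and Itgam, Cd14, Cd163, Siglec1 and Itgax were below the table median in all 6 groups. Slc40a1, the iron exporter of macrophages that recycle haem iron, fell by 4.24 ± 0.35 (SE) in wild-type cells (adjusted p = 2.22e-07, limma). The fall was not limited to macrophage markers. All 5 measured T cell markers fell as well. Of 7 B cell markers 5 fell in wild-type and 4 in deficient cells, and of 5 natural killer cell markers 3 and 4. Of 10 neutrophil and 5 erythroid markers 0 passed, and 1 of 5 platelet markers rose in wild-type cells. The part of other cells in the fall of Hmox1 was not tested.

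**Figure D4:**
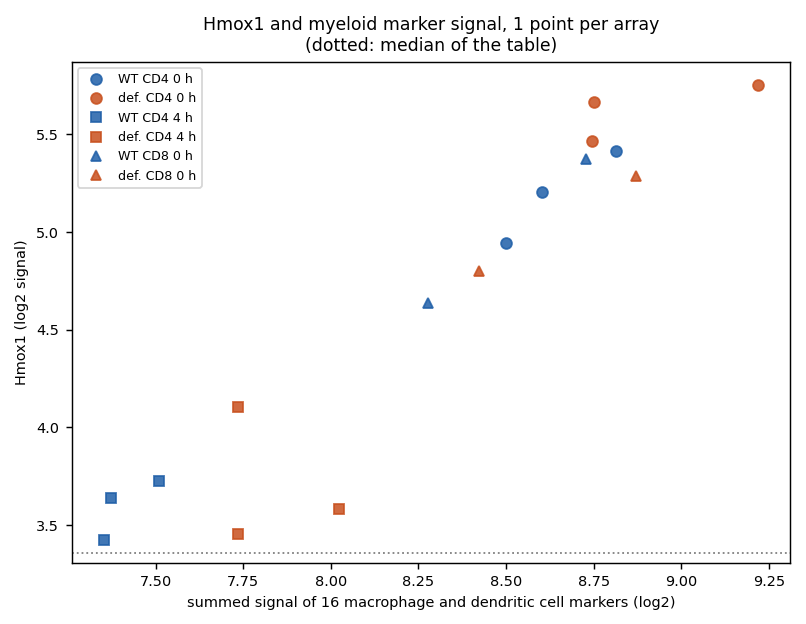
Hmox1 signal (log2) against the summed signal of 16 macrophage and dendritic cell markers (log2), 1 point per array. Blue is wild-type and orange Tsc1-deficient (def.); circles are unstimulated CD4, squares stimulated CD4 and triangles CD8 arrays, and the dotted line is the table median of 3.36. The 6 stimulated arrays have sums up to 8.02 and Hmox1 values up to 4.10, and the 10 unstimulated arrays have sums from 8.28 and Hmox1 values from 4.63.

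Nqo1, the quinone reductase, gave 2.16 to 2.88 on the 16 arrays, below the table median on each, and did not pass in any comparison. Its genotype difference after 4 h was 0.20 ± 0.15 (SE; 95% interval -0.12 to 0.53; adjusted p = 0.573, limma).

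CD8 and CD4 cells differed in 1 member. The wild-type CD8 arrays gave 7.40 and 7.29 for Gclm and the deficient ones 7.44 and 7.26, all below the 6 unstimulated CD4 values, the lowest of which was 7.65. In wild-type cells Gclm was lower in CD8 by 0.51 ± 0.10 (SE), or 1.42-fold (-0.51; adjusted p = 0.0112, limma), the 1 member of 10 to pass where 3.95% of genes did. That call ended without the wild-type CD4 replicate 2 or without either wild-type CD8 array, with differences of -0.45 to -0.57 and adjusted p values of 0.0513 to 0.146 in limma. In deficient cells the difference was -0.38 ± 0.10 (SE; adjusted p = 0.0621, limma), and 0 of 10 members passed in limma where 4.98% of genes did. An unadjusted p under 0.05 in limma was found for 3 members and for 3226 of 17097 genes.

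The genotype effect was compared between lineages as an interaction, which 0 of 10 members passed in limma and 0.0643% of genes did. An unadjusted p under 0.05 in limma was found for 1 member and for 1230 of 17097 genes. Cat read 9.19 and 9.22 in wild-type against 9.48 and 9.58 in deficient CD8 cells, a difference of 0.33 ± 0.11 (SE; adjusted p = 0.123, limma). These values do not overlap, and nor do the CD8 values of Gclc and Nqo1. The share of all genes without overlap was not counted. On the second Cat probe set the CD8 values overlapped and the difference was -0.13 (adjusted p = 0.727, limma). Gclc read 8.02 and 8.13 in wild-type against 8.27 and 8.24 in deficient CD8 cells, a difference of 0.18 ± 0.15 (SE; adjusted p = 0.663, limma). The CD8 values of Sod1 ran from 10.53 to 10.62 and those of Prdx1 from 10.53 to 10.81, with both genotypes overlapping.

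Genes of the surrounding pathways were counted from lists whose choice used earlier results of these data. By genotype, 4.35% of all genes passed in either direction in CD4 cells at 0 h and 4.18% in CD8 cells. After 4 h 4.56% of all genes were higher and 3.01% lower. Each list count by genotype below stands beside these shares. Of 9 measured regulators, 1 was higher and 1 lower in deficient CD4 cells at 0 h, 2 were higher and 1 lower after 4 h, and 1 was higher and 0 lower in CD8 cells. The list medians were -0.19, 0.02 and -0.09, with 2, 5 and 4 positive differences. Nfe2l2, which encodes Nrf2, was higher in deficient cells in all 3 genotype comparisons. Its means were 9.96 against 9.03 in unstimulated CD4 cells (0.93 ± 0.15, SE; adjusted p = 0.00248, limma), 9.47 against 8.88 after 4 h (0.58 ± 0.15, SE; adjusted p = 0.0333, limma) and 9.40 against 8.33 in CD8 cells (1.07 ± 0.19, SE; adjusted p = 0.00485, limma). The stimulated deficient arrays spread from 9.02 to 9.77, and the call after 4 h was lost in 7 of 17 alternative fits. These include leaving out any wild-type array or the deficient replicate 2 or 3, with adjusted p values of 0.0906 to 0.13 in limma. The CD8 call ended without the wild-type CD8 replicate 1 (1.04; adjusted p = 0.0607, limma). These Nfe2l2 values are of its brightest probe set, which did not pass with stimulation in wild-type cells. With its probe sets averaged Nfe2l2 did, with a difference of -0.95 (adjusted p = 0.000203, limma). Bach2, a repressor at antioxidant response elements, was lower in deficient CD4 cells, by 0.61 at 0 h (-0.61; adjusted p = 0.0196, limma) and by 0.63 after 4 h (-0.63; adjusted p = 0.0106, limma). The 0 h call of Bach2 ended without the wild-type replicate 1 or 3 or the deficient replicate 1 or 2, with adjusted p values of 0.0618 to 0.0942 in limma. The small Maf gene Mafk was higher after 4 h by 0.53 (adjusted p = 0.0492, limma), a call lost in 9 of 17 alternative fits. The related genes Mafg and Maff rose with stimulation in wild-type cells, by 1.52 and 1.59, and in deficient cells, by 1.78 and 2.28.

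Of 25 further glutathione genes, 5 were higher in deficient cells at 0 h, 7 after 4 h and 3 in CD8 cells, and 0 were lower in these 3 comparisons. The list medians were 0.20, 0.15 and 0.13, against 0.00971, -0.00071 and -0.00613 over all genes. Glrx, a glutaredoxin that uses glutathione to reduce protein thiols, was higher in all 3 comparisons, by 1.07 ± 0.10, 1.83 ± 0.10 and 0.83 ± 0.12 (SE; adjusted p = 1.69e-05, 2.02e-07 and 0.00133, limma). After 4 h Gsto1, Gstt2, Gpx1 and the glutathione reductase Gsr were also higher, by 1.07, 0.96, 0.70 and 0.65. With stimulation 12 of the 25 fell and 0 rose in wild-type cells, where 18.5% of all genes fell and 12% rose. In deficient cells 11 fell and 1 rose, where 20.9% of all genes fell and 13.2% rose. Mgst2 and Gstt2 fell most, by 2.79 and 2.53 in wild-type cells. The transporter subunit Slc3a2 was the gene that rose, by 0.76, while Gss and the cystine transporter gene Slc7a11 passed in 0 comparisons.

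Of 14 measured thioredoxin, peroxiredoxin and related genes, 3 were higher in deficient CD4 cells at 0 h, 3 after 4 h and 4 in CD8 cells, and 1 was lower, Txnrd2 after 4 h. Prdx2, another cytosolic peroxiredoxin, was higher by 0.52, 0.78 and 0.47 (adjusted p = 0.0076, 0.000239 and 0.0446, limma), and unlike Prdx1 it fell with stimulation, by 0.95 in wild-type and 0.69 in deficient cells. Its CD8 call ended without the replicate 1 of either genotype (adjusted p = 0.388 and 0.185, limma). Thioredoxin itself, Txn1, was higher after 4 h by 0.40 ± 0.10 (SE; adjusted p = 0.0218, limma). The Txn1 call ended without any 1 of the 3 wild-type arrays or the deficient replicate 3, with adjusted p values of 0.0542 to 0.0809 in limma. The mitochondrial reductase Txnrd2 had a difference of -0.44 ± 0.09 (SE; adjusted p = 0.0115, limma) after 4 h, and -0.11 (adjusted p = 0.474, limma) with its probe sets averaged. Prdx4 was lower in CD8 than in CD4 cells, by 1.71 ± 0.13 (SE) in wild-type cells (-1.71; adjusted p = 7.08e-07, limma).

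Of 7 measured genes of NADPH supply, which feeds both reductases, 0 passed at 0 h or in CD8 cells in limma, and 2 were higher after 4 h, Idh1 by 0.87 ± 0.16 (SE; adjusted p = 0.00311, limma) and Pgd by 0.53 ± 0.12 (SE; adjusted p = 0.0126, limma). The Pgd call ended without the wild-type replicate 2 or 3 (adjusted p = 0.0526 and 0.0599, limma). Of 9 haem and iron genes 2 were higher in each genotype comparison. Ftl1, a ferritin light chain, was among them each time, by 0.61, 0.79 and 0.83 (adjusted p = 0.000568, 6.49e-05 and 0.000328, limma). Blvra and Blvrb, both of the haem and iron list, fell with stimulation by 0.80 and 0.82 in wild-type and by 1.35 and 1.19 in deficient cells.

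**Figure D5:**
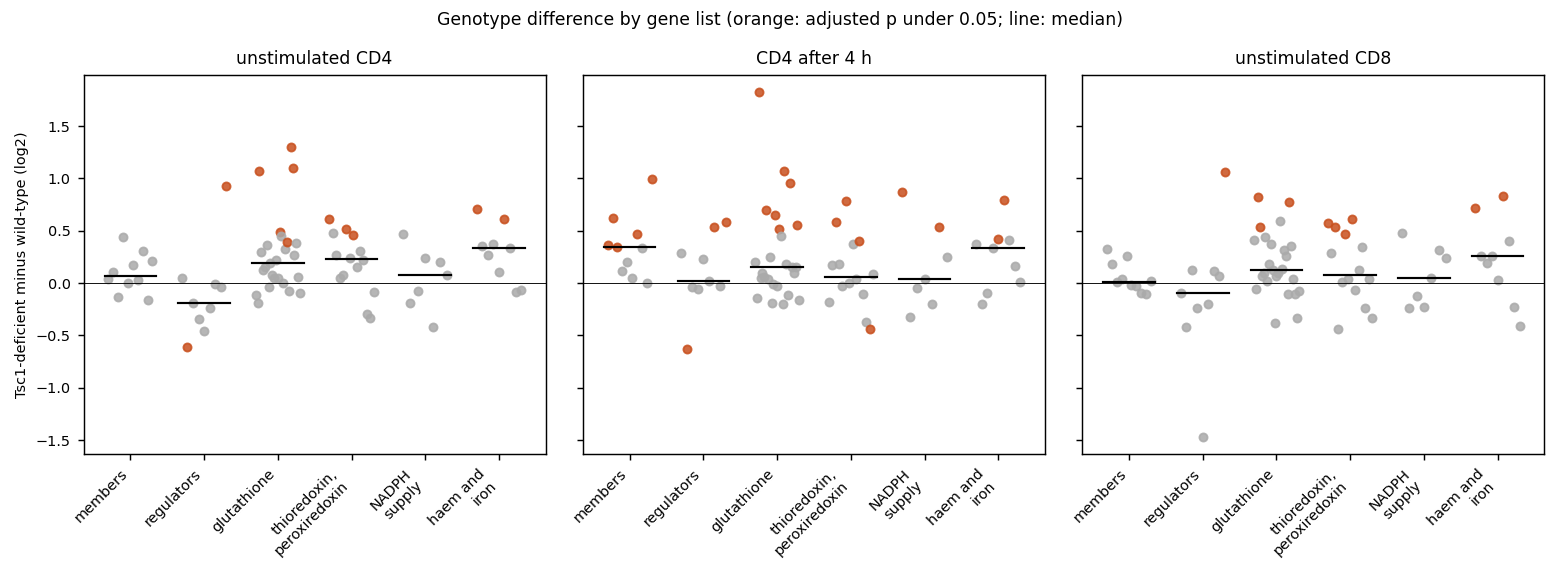
Tsc1-deficient minus wild-type difference (log2) of single genes, by list, in unstimulated CD4 cells, CD4 cells after 4 h and unstimulated CD8 cells. Points are genes on their brightest probe set, lines are list medians and orange marks an adjusted p under 0.05. The median of the 10 members is 0.07, 0.34 and 0.01 in the 3 panels, and that of the 25 glutathione genes 0.20, 0.15 and 0.13.

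Markers of other cells also differed by genotype in stimulated CD4 cells, where the member differences lay. After 4 h 4.56% of all genes were higher in deficient cells. Of 10 measured neutrophil markers 4 were higher in deficient cells after 4 h (S100a8, S100a9, Ngp and Camp, by 3.11, 2.89, 3.03 and 2.48). The summed signal of the 10 neutrophil markers ran from 8.53 to 10.25 against 6.46 to 7.21 in wild-type cells. Of these markers Elane, Cxcr2 and Mmp8 were below the table median in all 6 groups. After 4 h 3 of the 10 were above it in wild-type and 7 in deficient cells. Wild-type Camp was then below it, at 2.89, and wild-type Ngp lay at it, at 3.37. At 0 h the sum ran from 8.20 to 10.34 in deficient and 6.83 to 8.15 in wild-type CD4 cells, and in CD8 cells from 8.71 to 9.83 against 6.97 to 8.38, with every deficient sum above every wild-type sum in each of the 3 comparisons. The median difference of the 10 markers was 1.18 at 0 h, 1.12 after 4 h and 0.88 in CD8 cells. At 0 h and in CD8 cells 0 of 10 members and 0 of these markers passed in limma, with Ngp at 2.64 (adjusted p = 0.0541, limma) at 0 h. Of 16 macrophage and dendritic cell markers 3 were higher after 4 h (Lyz2, Mpeg1 and Cd68). In the same comparison 1 of 5 natural killer cell markers was higher, and 0 of 5 erythroid, 7 B cell and 5 platelet markers passed. All 7 B cell markers nonetheless had positive differences, with a median of 0.43, and their summed signal ran from 6.94 to 7.26 in deficient against 6.69 to 6.71 in wild-type cells. The erythroid sum ran from 8.34 to 9.48 against 7.28 to 8.83, and the platelet sum from 5.52 to 5.82 against 5.30 to 5.74, both overlapping. Among the T cell markers Thy1 was higher by 0.91, and Cd3g and Lat had differences of -0.83 and -0.49. The naive T cell gene Lef1, the 1 of 5 such markers measured, had a difference of -0.83 (adjusted p = 0.000974, limma). The part of any of these in the member differences was not tested.

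For the members whose group means spanned over 1 log2 unit, the genes with the most similar profile over the 16 arrays were found by Pearson correlation, as a description. The points share the split between stimulated and unstimulated arrays. For Hmox1 they were Fcna (0.97), C1qc (0.96) and Bola3 (0.96). The nearest to Gclc were Btbd9 (0.98), Zfp703 (0.97) and Ninj1 (0.96). Those of Sod1 were Bcl2l11, Sdf2 and Odc1 (each 0.98), and those of Cat were Pgap2 (0.98), Fbxo22 (0.98) and Crip1 (0.97).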

How the data were processed

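Each sample was hybridised to 1 single-colour Affymetrix array. The deposited log2 values were made by the authors with RMA in Partek 6.5, per the submitters' processing notes; the order of these steps and any batch are not given in the sources used here, and scanner files were not used here. RMA sets arrays to a common distribution, so differences are relative to the other probe sets of an array. Of 45141 probe sets 104 controls were left out. Probe sets were named from the platform annotation, where 28898 have 1 gene, 551 several and 15588 none.

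Samples were grouped by labelled genotype, lineage and stimulation. All 45037 probe sets entered 1 limma 3.58.1 model in R 4.3.3 with a mean per group over 16 arrays (10 residual degrees of freedom) and moderated variances. The 9 comparisons were differences of group means or of such differences, with Benjamini-Hochberg adjustment over all probe sets and a threshold of 0.05. Genes were counted by brightest probe set. The script was tested on simulated data. Precision is limited by the number of arrays.

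The members and lists were chosen with earlier results of these data known. All member probe sets are reported; from other lists up to 5 passing genes by size of change may be named, besides Nfe2l2, Keap1, Bach1, Txn1, Gsr, Gss, Slc7a11, Prdx2 to Prdx6 and G6pdx, and for members spanning over 1 log2 unit the 3 most correlated genes. Lists covered regulators, glutathione, thioredoxin and peroxiredoxin, NADPH supply, haem and iron, and markers of T, CD4, CD8, naive, macrophage and dendritic, neutrophil, erythroid, B, natural killer and platelet cells. Marker genes that did not pass, and Ccs, were named after their values were seen. Alternatives were 2 normalizations, 2 summaries of probe sets, a filter on dim probe sets, 2 variance models, fewer groups in the fit, 2 treatments of the Gapdh difference, a 2-fold minimum and each array left out in turn. A block of CD4 arrays with consecutive title codes was added after seeing the data. Promoter windows came from RefSeq (GRCm38.p6). Plots used Python 3.11.15 and matplotlib 3.10.9.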

Additional observations from a re-analysis of the deposited data

Results flagged for a closer look

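In 3 genes of the members and pathway lists, the response to stimulation differed between the genotypes by the test of the difference itself. Of all genes 0.69% passed that test. From the marker lists, 1 of 5 T cell and 1 of 5 natural killer cell markers passed it too, both with a negative difference. For Txnrd1 the response was 0.79 higher in deficient than in wild-type cells (limma, adjusted p = 0.0152), and 2 of 23 alternatives lost that call. The glutaredoxin gene Glrx fell in both genotypes, less in deficient cells, with a difference of 0.76 (limma, adjusted p = 0.029), and 10 of 23 alternatives lost that call. Ccs, the copper chaperone that loads Sod1, fell in both genotypes, more in deficient cells, with a difference of -0.79 (limma, adjusted p = 0.0212), and 9 of 23 alternatives lost that call. The Ccs means were 8.02 and 8.63 in unstimulated and 7.55 and 7.38 in stimulated wild-type and deficient CD4 cells.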

How the results depend on the processing

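Over 12 alternatives and 16 arrays left out in turn, 2842 single results of the member probe sets kept their side of the threshold, 44 lost a call and 23 gained one; 0 called results changed sign. For the other list genes these numbers were 19281, 409, 221 and 0. The 5 members called by genotype after 4 h became 1 with only the compared groups in the fit and 0 with a 2-fold minimum, and ranged from 3 to 5 with 1 array left out. The 0 members called at 0 h became 1 (Sod2) with array weights or without the 2 arrays of high Gapdh difference. With a 2-fold minimum, members called with stimulation went from 6 to 1 in wild-type and from 7 to 3 in deficient cells, the interaction with stimulation from 1 to 0, and CD8 against CD4 in wild-type cells from 1 to 0. With 1 array left out, both of the latter ranged from 0 to 1. CD8 against CD4 in deficient cells went from 0 to 1 (Gclm) with 1 probe set per gene, with averaged probe sets or without dim probe sets, and ranged from 0 to 1 with 1 array left out. With fewer groups or arrays the fit has fewer residual degrees of freedom. The cause was not tested in the other cases. The share of all genes called was not counted in any alternative. Leaving 1 CD8 array out leaves 1 array, assumed to vary like the other groups. The labels give no replicate numbers, but the titles carry codes that follow each other in 6 pairs of 0 h and 4 h CD4 arrays, with no word on what they mean. Deviations from the group means correlated at -0.0056 to 0.113 within these pairs, over 0.1 in 2 of 6, so the codes were not taken to pair arrays. With the pairs as a replicate block, chosen after seeing the data (random for genotype, fixed for stimulation), 0, 5, 6 and 7 members were called at 0 h, after 4 h and with stimulation in wild-type and deficient cells, as without it. The interaction of Txnrd1, at 0.79, had an adjusted p of 0.0637 in limma, so the members called went from 1 to 0; the fixed block leaves fewer residual degrees of freedom. Signals of Nqo1 and Srxn1 were near or below the table median.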
